A study of Mus musculus with 8 samples.

Results

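The genes described here encode the proteins that carry a cell through mitosis and share out its chromosomes. The set of 48 genes was a fixed list matched to the gene symbols of the array annotation, and each gene was read from its brightest probe set, by the mean of 8 arrays. Of these, 47 were measured, out of 18193 genes on the array, and Ccnb1, which encodes cyclin B1, was not analysed here. The list has 9 roles: mitotic kinases, cyclins and phosphatases, the chromosomal passenger complex, the spindle checkpoint, the kinetochore and centromere, spindle motors and microtubule proteins, the central spindle and cytokinesis, the anaphase-promoting complex with sister separation, condensin with topoisomerase and the chromosome surface, and transcription factors. The used probe set was called present by the array software on all 8 arrays for 44 members, on 7 arrays for Plk1 and Nuf2, and on 1 array for Foxm1.

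Mouse embryonic stem cell (ESC) lines lacking Zfp281, a zinc finger transcription factor, were compared with heterozygous and wild-type lines. The groups were 3 null lines (7, 3.34 and 3.38), which carry a null allele of Zfp281 on both chromosomes, 2 heterozygous lines (5 and 3.1), and 3 wild-type lines (3, 3.2 and 3.3). In the targeted allele both Zfp281 exons are replaced by a floxed neomycin resistance cassette. Cre recombinase can remove the cassette, and the paper shows null alleles of both forms. Which form each line carries was not analysed here. The lines came from blastocyst outgrowths of matings between heterozygous mice, and each gave 1 array, so that the spread within a genotype holds differences between lines as well as technical error. All lines grew on primary mouse embryonic fibroblast feeders with serum and LIF and received no further treatment, so the RNA could hold feeder transcripts.

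Levels are RMA log2 values, a scale on which a difference of 1 is 2-fold. Levels of different genes are not compared, since probe sets differ in their response. Differences between genotypes were tested with limma across all 18193 genes, and adjusted p is Benjamini-Hochberg adjusted over all of them. Zfp281 itself averaged 4.64 ± 0.87 in the null lines (SD, n = 3), 6.83 ± 0.20 in the heterozygous lines (SD, n = 2) and 7.18 ± 0.66 in the wild-type lines (SD, n = 3), and every null line lay below every other line. Present calls covered the smallest shares of probe sets in heterozygous line 3.1 (28.4%) and wild-type line 3.2 (30.4%) and ran between 32.3% and 35.3% in the other 6 lines. The difference between 3′ and 5′ control probe sets (mean of Gapdh and beta-actin), which grows as the labelled RNA gets shorter, was 2.68 to 3.71 in the null lines, 4.49 to 4.80 in the heterozygous lines and 4.23 to 4.86 in the wild-type lines on the log2 scale. The null lines did not overlap the wild-type lines in this measure (exact two-sided permutation test, p = 0.1, the smallest that 3 against 3 lines allow).

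Mitotic genes are known to be switched on late in the cell cycle, as cells prepare to divide, and are held off in resting cells. The switch works through a promoter element called the cell cycle genes homology region (CHR), bound by the DREAM and MuvB complexes with the partners Mybl2 and Foxm1, and through CCAAT boxes bound by NF-Y. Mouse ESCs are known for a fast cycle with short gap phases.

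Promoters were taken from RefSeq on GRCm38.p6, from 250 bases before to 50 bases after the annotated start, and 39 of the 48 listed genes were matched by symbol. No promoter was used for Aurkb, Ccna2, Cdc25c, Foxm1, Incenp, Kif20a, Smc4, Spc24 and Tpx2. The motif TTTGAA (CHR, searched on both strands) was found in 27 of 39 member promoters (69.2%), against 20.2% of the promoters of 27025 genes, and in 24 members a copy began within 50 bases of the start. CCAAT, searched on both strands, was found in 29 of 39 (74.4%), against 41.1% of genes, and both motifs in 24 members. The tandem form, in which a cell-cycle-dependent element (GCGG) stands 4 bases before TTTGAA and so overlaps the CHR count, was found on either strand in Cdk1 and Cenpf, 2 of 39, against 0.0851% of genes. GGGCGG, the GC box bound by Sp factors, was found on either strand in 31 of 39 (79.5%), against 38.2% of genes, and the G-rich letters GGGGAGGGG in 0 of 39, against 7.20% of genes. A match describes letters in a window and does not show that a factor binds there.

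**Figure D1:**
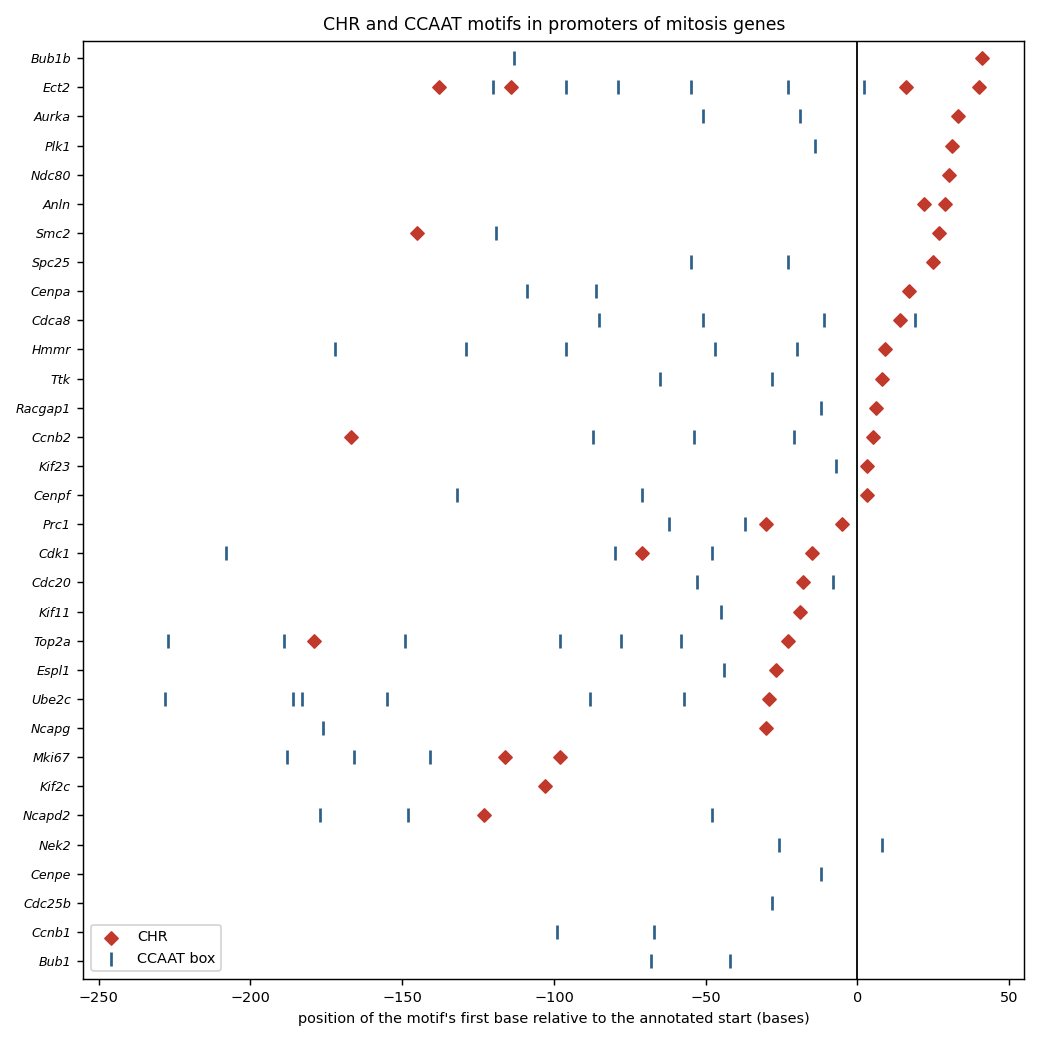
Position of the CHR (red diamonds, TTTGAA) and CCAAT (blue bars) motifs in the promoters of the 32 members with either, in bases from the annotated start (0). In 24 members a CHR began within 50 bases of the start, and CCAAT boxes lay mostly before it.

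The 120 bases before the start are printed, 5′ to 3′ on the gene's strand, for the members on which the comparisons below turn, with every complete CHR (TTTGAA or TTCAAA) and CCAAT box (CCAAT or ATTGG) in capitals. Cdk1, Aurka, Birc5 and Top2a were the members furthest above wild-type in the null lines without overlap, Spc25 was the furthest below, Kif11 and Espl1 lay above wild-type in the heterozygous lines, and Cdc20 is a gene whose probe sets gave different results. Coordinates are those of GRCm38.p6.
Cdk1, chr10:69352913-69353032, minus strand: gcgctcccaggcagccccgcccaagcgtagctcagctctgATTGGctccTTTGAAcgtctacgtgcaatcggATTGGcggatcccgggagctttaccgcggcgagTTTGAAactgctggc
Aurka, chr2:172370571-172370690, minus strand: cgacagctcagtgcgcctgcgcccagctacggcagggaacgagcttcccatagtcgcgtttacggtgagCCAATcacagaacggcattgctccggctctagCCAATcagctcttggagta
Birc5, chr11:117849117-117849236, plus strand: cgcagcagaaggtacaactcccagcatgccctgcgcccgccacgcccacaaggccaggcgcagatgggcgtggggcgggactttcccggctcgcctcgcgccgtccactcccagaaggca
Top2a, chr11:99024190-99024309, minus strand: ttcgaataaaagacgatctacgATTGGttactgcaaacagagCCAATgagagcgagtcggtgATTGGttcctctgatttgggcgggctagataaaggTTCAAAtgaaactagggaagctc
Spc25, chr2:69206214-69206333, minus strand: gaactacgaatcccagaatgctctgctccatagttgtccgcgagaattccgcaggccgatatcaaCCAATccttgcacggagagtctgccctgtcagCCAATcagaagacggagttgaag
Kif11, chr19:37376262-37376381, plus strand: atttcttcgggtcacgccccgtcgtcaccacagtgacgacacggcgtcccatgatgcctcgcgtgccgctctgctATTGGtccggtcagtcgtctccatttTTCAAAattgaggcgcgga
Espl1, chr15:102296173-102296292, plus strand: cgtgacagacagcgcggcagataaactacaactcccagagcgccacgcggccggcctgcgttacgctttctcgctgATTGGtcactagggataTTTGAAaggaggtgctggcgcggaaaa
Cdc20, chr4:118437344-118437463, minus strand: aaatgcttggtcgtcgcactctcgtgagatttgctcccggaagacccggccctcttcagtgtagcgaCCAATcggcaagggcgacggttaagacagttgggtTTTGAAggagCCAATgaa
The Cdk1 stretch held 2 CHR copies and 2 CCAAT boxes, that of Top2a 1 CHR and 3 CCAAT boxes, and those of Kif11, Espl1 and Cdc20 1 CHR each. The Aurka and Spc25 stretches each held 2 CCAAT boxes and no CHR, and in both genes a CHR followed after the start. Birc5 had neither motif in the stretch. The median log2 fold change of null over wild-type was −0.034 in the 27 measured members with a CHR and 0.10 in the 11 without, and no test was made of this difference.

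No member passed an adjusted p of 0.05 between null and wild-type lines by limma, where 1.13% of all genes did (206 genes, and 2 to 208 with 1 line left out), and 0 of 47 differed by 2-fold, where 2.47% did. At an unadjusted p under 0.05 there were 11 members, 9 higher in null lines (Cdk1, Aurka, Nek2, Birc5, Cenpa, Kif20a, Ncapd2, Top2a and Mybl2) and 2 lower (Bub1b and Ncaph), which is 23.4% of the members against 16.4% of all genes. The higher ones were 19.1% of the members against 8.67% of genes, and the lower ones 4.26% against 7.71%. The median log2 fold change over the members was −0.003, beside −0.014 over all genes, and 23 of 47 had the higher mean in null lines (46.8% of genes). Most differences were small: for 39 of 47 members the 95% interval of the difference lay within 2-fold either way, as it did for 88% of all genes. The SE of a member's difference ran from 0.09 to 0.53 with a median of 0.17.

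The 3 null and 3 wild-type lines did not overlap in 7 members that were higher in null lines (Cdk1, Aurka, Birc5, Cenpa, Kif20a, Ncapd2 and Top2a, 14.9% against 11.1% of genes) and 4 that were lower (Cdca8, Bub1b, Spc25 and Ncaph, 8.51% against 11.2%), or 11 in all (22.4% of genes). With only detected genes in the fit, Aurka (adjusted p = 0.0482) and Birc5 (adjusted p = 0.0485) passed, as did Birc5 without wild-type line 3.3 (adjusted p = 0.0486). In these fits 420 and 208 of all genes passed, against 206 with all lines and genes. Keeping only detected genes left the log2 fold changes unchanged. With the 3′ to 5′ measure as a covariate, 1 member had an unadjusted p under 0.05, Mad2l1 at 0.64 (SE 0.26). None of the 11 members with such a p without the covariate did. The share of all genes at that threshold in this fit is not given here, so the count has no baseline. At an adjusted p of 0.05, 0 of all genes passed in it.

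**Figure D2:**
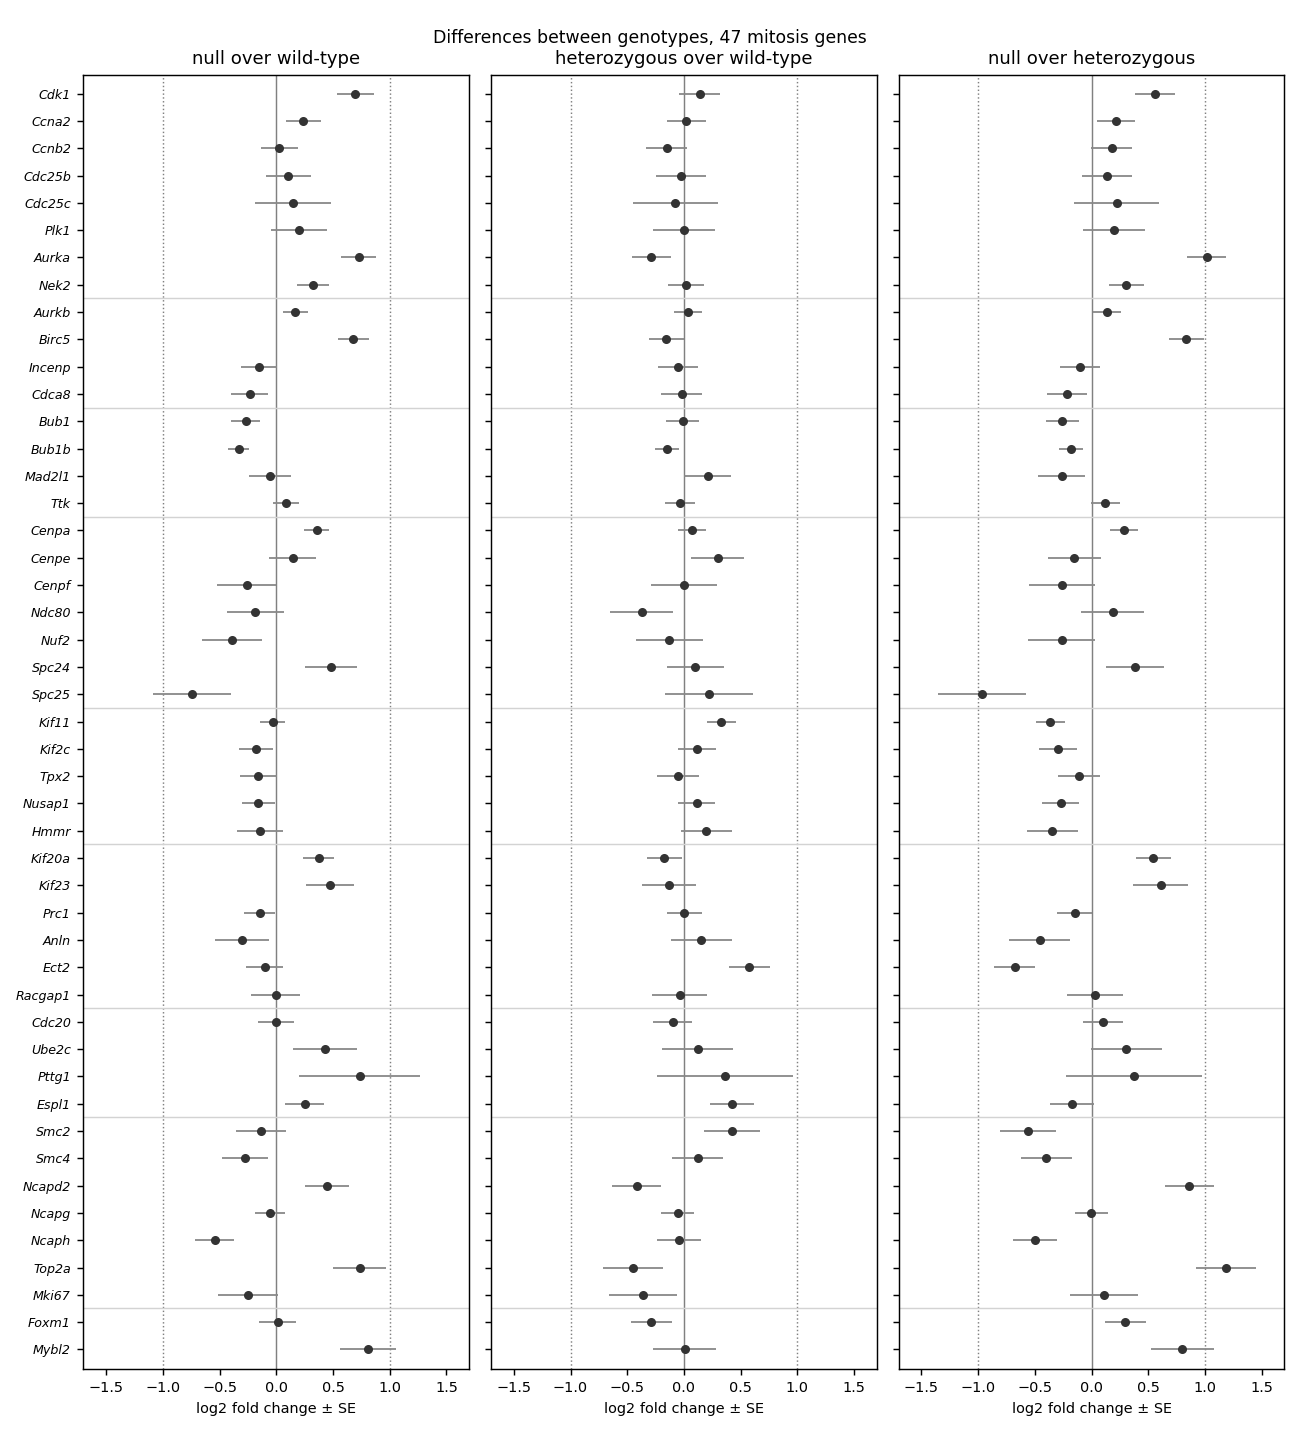
Log2 fold change ± SE from limma for the 47 measured members in the 3 comparisons, with roles divided by grey lines and 2-fold marked by dotted lines. Cdk1, Aurka, Birc5, Top2a, Mybl2 and Pttg1 lay furthest right for null over wild-type and Spc25 and Ncaph furthest left. None passed an adjusted p of 0.05.

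Among the mitotic kinases, cyclins and phosphatases, all 8 measured members had the higher mean in null lines, and their median log2 fold change was 0.22. Cdk1 is the kinase that drives entry into mitosis. Its level was 9.34, 9.34 and 9.00 in null lines 7, 3.34 and 3.38, then 8.76 and 8.57 in heterozygous lines 5 and 3.1, with 8.26, 8.55 and 8.77 in wild-type lines 3, 3.2 and 3.3. The 3 null lines lay above all 5 others, and the log2 fold change of null over wild-type was 0.70 (SE 0.16, adjusted p = 0.0786). Aurka, the Aurora kinase of centrosomes and spindle poles, was also highest in the null lines. It measured 8.12, 7.72 and 7.61 in the null lines, then 6.90 and 6.71 in the 2 heterozygous lines, with 6.96, 7.17 and 7.15 in the wild-type lines. Its lowest null line stood above the highest wild-type line, and the log2 fold change was 0.73 (SE 0.15, adjusted p = 0.0643). Nek2 encodes a kinase that helps centrosomes part. It was at 6.02, 6.23 and 6.40 in the null lines, then 5.89 and 5.93 in the 2 heterozygous lines, with 5.73, 5.85 and 6.10 in the wild-type lines. The null and wild-type lines overlapped, at a log2 fold change of 0.32 (SE 0.14, adjusted p = 0.294). The remaining members of this role, Ccna2 and Ccnb2 (cyclins that partner Cdk kinases), Cdc25b and Cdc25c (phosphatases that activate Cdk1) and Plk1 (a Polo-like kinase), had log2 fold changes between 0.025 and 0.24, and none of these reached an unadjusted p of 0.05.

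**Figure D3:**
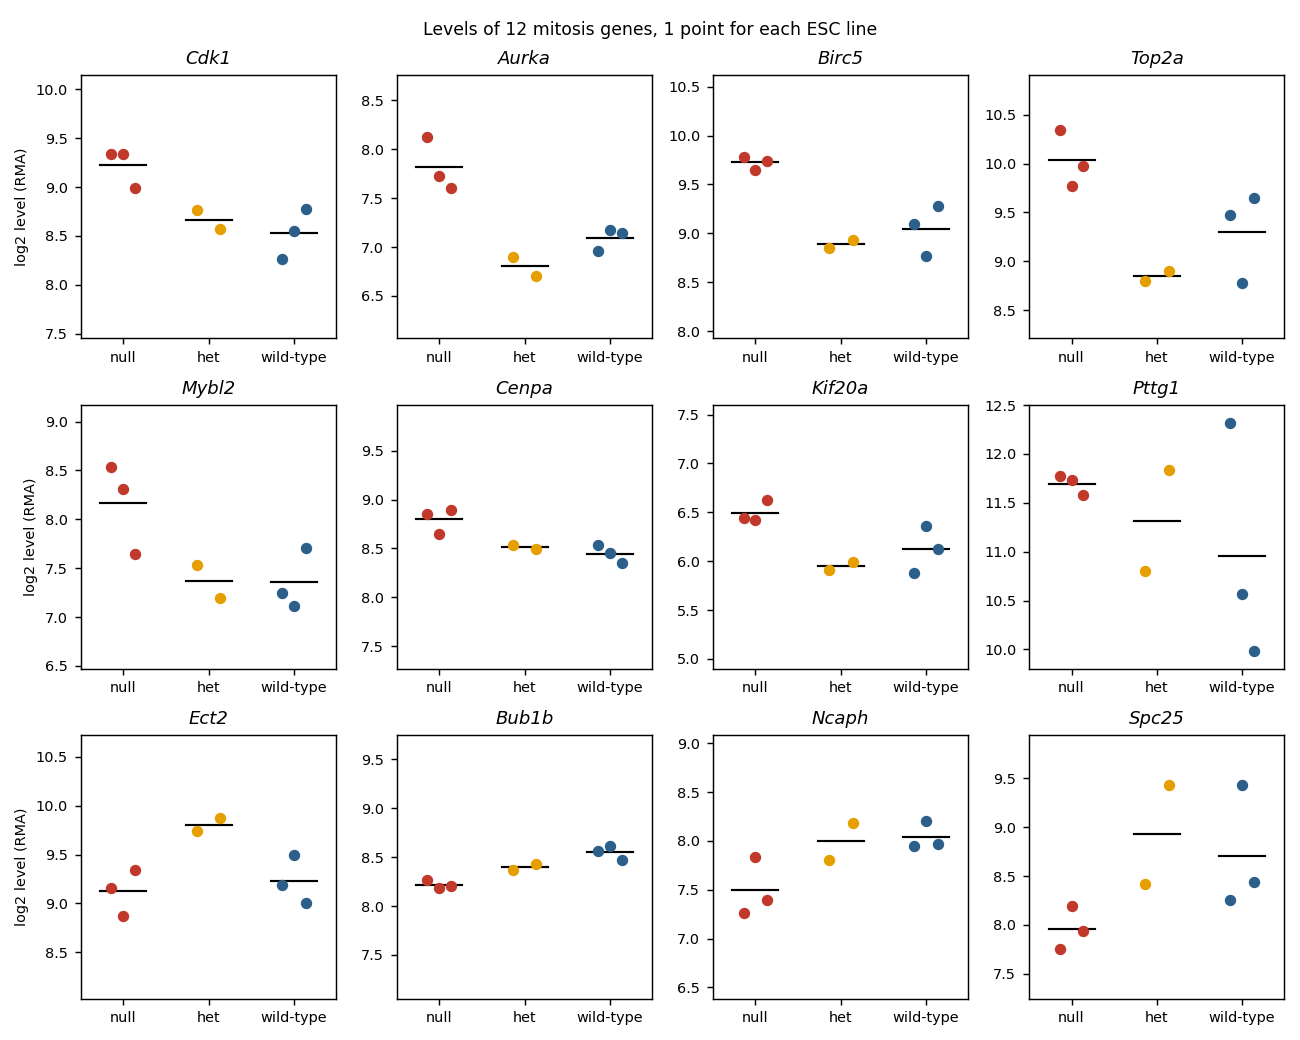
RMA log2 level of 12 members in each ESC line, with null (red) on the left, heterozygous (orange) in the middle and wild-type (blue) on the right, 1 point for each line and a bar at the genotype mean. All panels span the same number of log2 units. Null lines lay above all wild-type lines for Cdk1, Aurka, Birc5, Top2a, Cenpa and Kif20a, and below them for Bub1b, Ncaph and Spc25.

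The chromosomal passenger complex, which corrects faulty attachments of chromosomes to the spindle and later guides cytokinesis, had subunits with differences of both signs. Birc5 (survivin) is its targeting subunit. It measured 9.78, 9.65 and 9.74 in the null lines, then 8.85 and 8.94 in the 2 heterozygous lines, with 9.09, 8.77 and 9.28 in the wild-type lines. The null lines agreed to within 0.13 and stood above all other lines, and the log2 fold change over wild-type was 0.68 (SE 0.14, adjusted p = 0.0617). Aurkb is the kinase of the complex. Its levels were 5.88, 5.96 and 5.93 in the null lines, then 5.76 and 5.81 in the 2 heterozygous lines, with 5.61, 5.73 and 5.93 in the wild-type lines. These overlapped, at a log2 fold change of 0.17 (SE 0.11, adjusted p = 0.541). Cdca8 (borealin), a scaffold subunit, had the opposite sign. It stood at 9.80, 9.77 and 9.75 in the null lines, then 9.75 and 10.23 in the 2 heterozygous lines, with 9.87, 10.27 and 9.88 in the wild-type lines. Its null lines lay just below all wild-type lines, at a log2 fold change of −0.24 (SE 0.16, adjusted p = 0.557), and Incenp, which holds the complex together, was at −0.16 (SE 0.16, adjusted p = 0.739).

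The spindle checkpoint delays anaphase until all chromosomes are attached. Bub1b (BubR1), a part of the inhibitor of the anaphase-promoting complex, had the smallest SE of all members. It measured 8.27, 8.18 and 8.20 in the null lines, then 8.37 and 8.43 in the 2 heterozygous lines, with 8.56, 8.62 and 8.47 in the wild-type lines. The null lines were lowest, the heterozygous lines lay between and the wild-type lines were highest, without overlap. The log2 fold change of null over wild-type was −0.33 (SE 0.09, adjusted p = 0.124). Bub1, the kinase that marks the kinetochore, lay the same way. Its levels were 8.53, 8.66 and 8.77 in the null lines, then 8.88 and 8.94 in the 2 heterozygous lines, with 8.86, 8.76 and 9.14 in the wild-type lines. Only null line 3.38 overlapped the wild-type lines, by 0.01, and the log2 fold change was −0.27 (SE 0.13, adjusted p = 0.352). Ttk (Mps1), which starts checkpoint signalling, was at 0.086 (SE 0.12, adjusted p = 0.82). It measured 7.53, 7.60 and 7.60 in the null lines, then 7.44 and 7.47 in the 2 heterozygous lines, with 7.57, 7.27 and 7.62 in the wild-type lines. Null and wild-type lines overlapped for Ttk and also for Mad2l1, the Mad2 protein that binds Cdc20, which was at −0.054 (SE 0.18, adjusted p = 0.943).

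Kinetochore genes pointed in both directions. Cenpa encodes the histone H3 variant that marks the centromere. It measured 8.85, 8.65 and 8.90 in the null lines, then 8.54 and 8.49 in the 2 heterozygous lines, with 8.53, 8.45 and 8.35 in the wild-type lines. The null lines lay above all others, at a log2 fold change over wild-type of 0.36 (SE 0.11, adjusted p = 0.148). Spc24, Spc25, Ndc80 and Nuf2 form the 4-part NDC80 complex, which grips the microtubule, and their signs were mixed. Spc25 was at 7.75, 8.19 and 7.94 in the null lines, then 8.42 and 9.43 in the 2 heterozygous lines, with 8.26, 9.43 and 8.43 in the wild-type lines. The null lines were lowest, and heterozygous line 3.1 and wild-type line 3.2 stood about 1 unit above the other lines of their genotypes. The log2 fold change of null over wild-type was −0.74 (SE 0.35, adjusted p = 0.342), the lowest of the 47 members. Its partner Spc24 was at 7.97, 7.87 and 8.02 in the null lines, then 7.81 and 7.33 in the 2 heterozygous lines, with 7.41, 7.05 and 7.96 in the wild-type lines. Wild-type line 3.3 overlapped the null lines, at a log2 fold change of 0.48 (SE 0.23, adjusted p = 0.348). Nuf2 measured 5.98, 6.68 and 6.34 in the null lines, then 6.32 and 6.87 in the 2 heterozygous lines, with 6.38, 7.22 and 6.57 in the wild-type lines. Ndc80 measured 6.26, 7.08 and 6.97 in the null lines, then 6.23 and 6.93 in the 2 heterozygous lines, with 6.80, 7.00 and 7.06 in the wild-type lines. For both, null line 7 was at or near the low end while the genotypes overlapped, at log2 fold changes of −0.39 (SE 0.26, adjusted p = 0.557) and −0.18 (SE 0.25, adjusted p = 0.819). Cenpe, a kinetochore motor, and Cenpf, a large kinetochore protein, were at 0.15 and −0.26.

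By the used probe sets, all 5 spindle motors and microtubule proteins had the lower mean in null lines, by little. Their log2 fold changes ran from −0.18 to −0.034 with a median of −0.16. Kif2c (MCAK) takes microtubules apart at their ends. It measured 8.18, 8.35 and 8.01 in the null lines, then 8.36 and 8.60 in the 2 heterozygous lines, with 8.16, 8.60 and 8.33 in the wild-type lines. Tpx2 activates Aurora A on the spindle. It measured 7.64, 7.66 and 7.72 in the null lines, then 7.53 and 8.02 in the 2 heterozygous lines, with 7.54, 7.98 and 7.96 in the wild-type lines. Nusap1 bundles microtubules near chromosomes. It measured 8.19, 8.23 and 8.17 in the null lines, then 8.29 and 8.65 in the 2 heterozygous lines, with 8.10, 8.54 and 8.42 in the wild-type lines. In all 3 genes heterozygous line 3.1 and wild-type line 3.2 were the 2 highest of the 8 lines, and no adjusted p was under 0.652. Kif11 (Eg5), the motor that pushes spindle poles apart, and Hmmr, a spindle assembly protein, were at −0.034 and −0.15. Dimmer probe sets called present on all 8 arrays did not all share the sign. For null over wild-type they read 0.16 for Kif11, −0.096 and 0.31 for Tpx2, and −0.11, −0.069 and 0.56 for Hmmr. A Kif2c probe set of the opposite sign is described below.

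Of the central spindle and cytokinesis genes, 2 kinesins had the higher mean in null lines. Kif20a (MKLP2) carries the passenger complex to the central spindle. It measured 6.44, 6.42 and 6.62 in the null lines, then 5.91 and 5.99 in the 2 heterozygous lines, with 5.88, 6.36 and 6.12 in the wild-type lines. The null lines stood above all other lines, with only 0.05 between the lowest null and the highest wild-type line, at a log2 fold change of 0.37 (SE 0.14, adjusted p = 0.221). Kif23 (MKLP1) belongs to the centralspindlin complex. It measured 8.03, 8.38 and 8.39 in the null lines, then 7.43 and 7.89 in the 2 heterozygous lines, with 7.39, 7.85 and 8.14 in the wild-type lines. Wild-type line 3.3 overlapped the null lines, at 0.47 (SE 0.21, adjusted p = 0.323). Anln (anillin), a scaffold of the contractile ring, was at 7.64, 8.33 and 8.13 in the null lines, then 8.14 and 8.84 in the 2 heterozygous lines, with 8.13, 8.28 and 8.61 in the wild-type lines. These overlapped, at −0.30 (SE 0.24, adjusted p = 0.631). Ect2, the exchange factor that activates RhoA at the cleavage site, is described with the heterozygous lines. Prc1, a microtubule bundler, was at −0.15 and Racgap1, the partner of Kif23, at −0.007.

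The anaphase-promoting complex is the ubiquitin ligase whose activity lets sister chromatids part. Pttg1 (securin), which holds separase inactive, varied more between lines than any other member, over 2.33 log2 units. It measured 11.78, 11.73 and 11.58 in the null lines, then 10.80 and 11.84 in the 2 heterozygous lines, with 12.32, 10.57 and 9.99 in the wild-type lines. Wild-type line 3 was the highest and wild-type line 3.3 the lowest of all 8 lines, while the null lines stood within 0.20 of each other, and the log2 fold change was 0.74 (SE 0.53, adjusted p = 0.592). Ube2c is the E2 enzyme of the complex. It was at 8.28, 8.36 and 7.68 in the null lines, then 7.61 and 7.99 in the 2 heterozygous lines, with 7.08, 8.08 and 7.88 in the wild-type lines. The groups overlapped, at 0.43 (SE 0.28, adjusted p = 0.545). Espl1 encodes separase, the protease that cuts cohesin. It measured 6.50, 6.01 and 6.07 in the null lines, then 6.47 and 6.26 in the 2 heterozygous lines, with 5.86, 6.21 and 5.75 in the wild-type lines. Its log2 fold change of null over wild-type was 0.25 (SE 0.17, adjusted p = 0.565). The used probe set of Cdc20, the activator of the complex, was at −0.0026 (SE 0.16, adjusted p = 0.997).

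Condensin folds chromosomes and topoisomerase II untangles them. Top2a encodes the topoisomerase of dividing cells. It measured 10.35, 9.78 and 9.98 in the null lines, then 8.80 and 8.90 in the 2 heterozygous lines, with 9.47, 8.78 and 9.65 in the wild-type lines. The lowest null line stood 0.13 above the highest wild-type line, and wild-type line 3.2 lay with the heterozygous lines. The log2 fold change of null over wild-type was 0.73 (SE 0.23, adjusted p = 0.163). A dimmer Top2a probe set, called present on all 8 arrays, gave −0.16 (SE 0.25), with null and wild-type lines overlapping. The condensin I subunits Ncapd2 and Ncaph had differences of opposite sign. Ncapd2 was at 8.13, 7.67 and 7.51 in the null lines, then 6.66 and 7.16 in the 2 heterozygous lines, with 7.20, 7.27 and 7.50 in the wild-type lines. Its null lines lay above all others by as little as 0.01, at 0.45 (SE 0.19, adjusted p = 0.304). Ncaph was at 7.26, 7.83 and 7.39 in the null lines, then 7.80 and 8.19 in the 2 heterozygous lines, with 7.94, 8.21 and 7.97 in the wild-type lines. Its null lines lay below all wild-type lines, at −0.54 (SE 0.18, adjusted p = 0.164). Smc2, a core ATPase of both condensins, measured 8.22, 8.24 and 8.58 in the null lines, then 8.68 and 9.13 in the 2 heterozygous lines, with 8.37, 8.94 and 8.14 in the wild-type lines. Null and wild-type lines overlapped, at −0.13 (SE 0.22, adjusted p = 0.86). Smc4, the other core ATPase, was at −0.28, Ncapg at −0.056 and Mki67, which coats mitotic chromosomes, at −0.25.

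Of the transcription factors that act on these promoters, Mybl2 (B-Myb) had the largest difference of all members. It measured 8.53, 8.31 and 7.65 in the null lines, then 7.53 and 7.20 in the 2 heterozygous lines, with 7.24, 7.12 and 7.71 in the wild-type lines. Null line 3.38 overlapped wild-type line 3.3, and the log2 fold change was 0.81 (SE 0.25, adjusted p = 0.148). Foxm1 measured 7.09, 6.99 and 6.97 in the null lines, then 6.93 and 6.50 in the 2 heterozygous lines, with 7.27, 6.78 and 6.97 in the wild-type lines. The difference was 0.010 (SE 0.16, adjusted p = 0.987), from a probe set called present on 1 array only.

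RNA length, feeder markers and ESC markers also differed between the genotypes. With the 3′ to 5′ measure of each array entered as a covariate in limma, the log2 fold change of null over wild-type became 0.30 (SE 0.30) for Cdk1, 0.20 for Aurka, 0.43 for Birc5, 0.048 for Top2a, 0.020 for Mybl2, −0.073 for Ncapd2, −0.026 for Ncaph and −0.039 for Spc25. It was 0.32 (SE 0.24) for Cenpa, 0.39 (SE 0.30) for Kif20a, 0.39 (SE 0.30) for Nek2 and −0.32 (SE 0.21) for Bub1b. These lay close to the values without the covariate, where the SEs were 0.11, 0.14, 0.14 and 0.09. None of them had an unadjusted p under 0.05 in limma with the covariate. With it 0 of all genes passed an adjusted p of 0.05. The covariate itself separates null from wild-type lines, so genotype and RNA length cannot be told apart here. Of 19 feeder fibroblast markers 16 had the lower mean in null lines (median log2 fold change −0.46), and their log2 summed level was 11.24 to 11.41 in null lines, 11.64 to 12.18 in heterozygous lines and 11.66 to 12.11 in wild-type lines. All 19 were called present on at least 1 array. Fewer feeder cells and less RNA per feeder cell cannot be told apart, and the part of feeder RNA in the members' differences was not tested. All 10 ESC markers were called present, and 9 had the higher mean in null lines (median log2 fold change 0.63), 7 of them at an unadjusted p under 0.05. Their log2 summed level was 14.10 to 14.28 in null lines, 13.42 to 13.50 in heterozygous lines and 13.08 to 13.47 in wild-type lines, without overlap between null and wild-type lines, and the part of this shift in the members' differences was not tested. Of 11 primitive endoderm markers 2 (Foxa2 and Amn), and of 7 trophectoderm markers 3 (Cdx2, Elf5 and Gata3), were called present on no array. The rest were called present on at least 1 array. For null over wild-type the endoderm median was −0.077 (from −0.98 to 1.06), with 1 higher and 0 lower at an unadjusted p under 0.05. The trophectoderm median was −0.001, with 0 at that threshold.

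Between heterozygous and wild-type lines no member passed an adjusted p of 0.05, nor did any of the 18193 genes (percent called 0), and 0 of 47 members were past 2-fold (0.335% of genes). At an unadjusted p under 0.05 there were 2 members, Kif11 and Ect2, both higher, which is 4.26% of the members against 3.85% of genes (1.67% higher and 2.18% lower). The median log2 fold change was −0.002, beside 0.006 over all genes, and 22 of 47 members had the higher mean in heterozygous lines (51.3% of genes). For 42 of 47 the 95% interval lay within 2-fold (92.6% of genes). Ect2 measured 9.16, 8.88 and 9.35 in the null lines, then 9.74 and 9.87 in the 2 heterozygous lines, with 9.19, 9.49 and 9.01 in the wild-type lines. Both heterozygous lines stood above every other line, and the log2 fold change over wild-type was 0.58 (SE 0.18, adjusted p = 0.997), the largest of the members. Kif11, chosen after its values were seen, measured 6.36, 6.55 and 6.66 in the null lines, then 6.98 and 6.80 in the 2 heterozygous lines, with 6.57, 6.61 and 6.49 in the wild-type lines. The heterozygous lines were again the 2 highest, at 0.33 (SE 0.13, adjusted p = 0.997). Espl1 and Smc2 followed Ect2, at 0.43 and 0.42, and the lowest were Top2a at −0.45, Ncapd2 at −0.42 and Ndc80 at −0.37. Heterozygous and wild-type lines did not overlap in 7 of 47 members (Mad2l1, Kif11, Ect2 and Espl1 higher, Aurka, Bub1b and Ncapd2 lower), where 17.3% of all genes did not (8.44% higher and 8.83% lower). Without heterozygous line 3.1 the median over the members was −0.16, and without line 5 it was 0.13.

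Between null and heterozygous lines no member passed an adjusted p of 0.05 (percent called 0 of all genes), and Aurka and Top2a were past 2-fold, 2 of 47, where 2.42% of genes were. Their log2 fold changes were 1.01 (SE 0.17, adjusted p = 0.0628) and 1.18 (SE 0.26, adjusted p = 0.0947). The dimmer Top2a probe set gave 0.00057 (SE 0.28) in this comparison. At an unadjusted p under 0.05 there were 13 members (27.7%, against 13.8% of genes), 9 higher (7.65% of genes) and 4 lower (6.16% of genes). Lines did not overlap in 22 of 47 members (27.9% of genes), 14 higher (29.8%, against 13.3% of genes) and 8 lower (17.0%, against 14.5%). The mean was higher in null lines for 25 of 47 members (45% of genes), and the 95% interval lay within 2-fold for 34 (85.8% of genes). Without wild-type line 3.2 in the fit, Aurka (adjusted p = 0.0406), Birc5 (adjusted p = 0.0269) and Top2a (adjusted p = 0.0288) passed, and with only detected genes Aurka did (adjusted p = 0.0439). In these fits 346 and 155 of all genes passed, against 0 with all lines and genes. Neither setting can change the log2 fold change of null over heterozygous, only its SE and the adjustment. The comparisons share lines, so their values are given side by side: for Cdk1 the heterozygous difference from wild-type was 0.14 (SE 0.18, adjusted p = 0.997), for Birc5 −0.15 (SE 0.16, adjusted p = 0.997) and for Mybl2 0.0083 (SE 0.28, adjusted p = 0.998).

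Lines of the same genotype differed. The pooled SD within genotypes had a median of 0.24 over the members, beside 0.17 over all genes, and the range over the 8 lines a median of 0.78, beside 0.55. After each gene was centred on its mean over the lines, the median member stood at −0.12, 0.091 and −0.0040 in null lines 7, 3.34 and 3.38, at −0.13 and 0.12 in heterozygous lines 5 and 3.1, and at −0.16, 0.14 and 0.035 in wild-type lines 3, 3.2 and 3.3. Within each genotype the line without a decimal in its name was the lowest, and 9 of 47 members in heterozygous line 5, 9 in wild-type line 3 and 20 in null line 7 were above their own mean, against 23 to 32 in the other lines. By the study's description, several derivation experiments gave the lines, and 2 pairs were litter-mates: null line 7 with wild-type line 3, and null line 3.38 with wild-type line 3.3. Null minus wild-type within the litters was 1.08 and 0.22 for Cdk1, 1.17 and 0.46 for Aurka, 0.69 and 0.46 for Birc5, 0.87 and 0.33 for Top2a, and −0.50 and −0.49 for Spc25, in that order of pairs. Of 47 members, 13 were higher and 15 lower in the null line of both litters, and 19 had opposite signs. The same count was not made over all genes, so these numbers have no baseline here. In 14 of 47 members (29.8%, against 9.48% of all genes) heterozygous line 3.1 and wild-type line 3.2 were the 2 highest of the 8 lines: Incenp, Cdca8, Cenpe, Cenpf, Nuf2, Spc25, Kif2c, Tpx2, Nusap1, Hmmr, Prc1, Smc2, Smc4 and Ncaph. In Spc24, Foxm1 and Mybl2 they were the 2 lowest (6.38%, against 7.69%). These are the 2 lines with the smallest shares of probe sets called present, and the part of that in their levels was not tested. Without both lines, 11 members (23.4%, against 14.04% of genes) had an unadjusted p under 0.05 between null and wild-type, of which 9 were among the 11 named above, and none passed an adjusted p of 0.05.

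**Figure D4:**
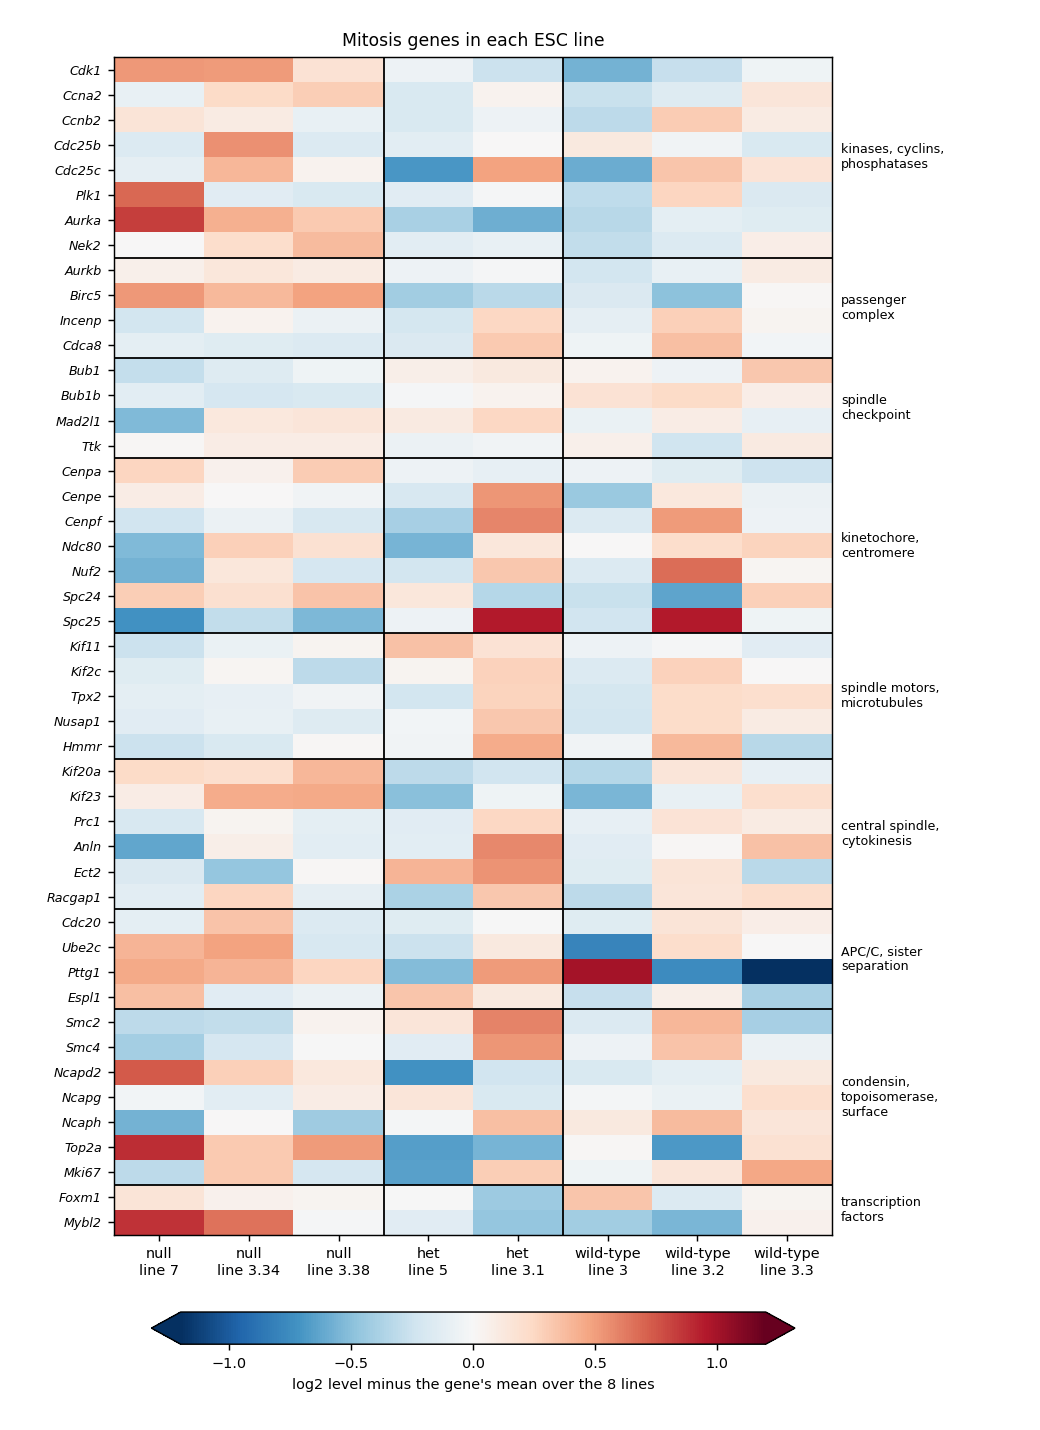
Log2 level of each of the 47 measured members in each line, minus the gene's mean over the 8 lines, with null lines on the left, heterozygous (het) lines in the middle and wild-type lines on the right. Red is above and blue below the gene's mean. Heterozygous line 3.1 and wild-type line 3.2 share a column pattern in the kinetochore, spindle and condensin genes, and null lines stand out in Cdk1, Aurka, Birc5 and Top2a.

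Probe sets of the same gene did not always give the same difference. The 47 measured members had 108 probe sets, 33 members more than 1. For 10 members the used probe set had a name ending in _s_at or _x_at, endings that mark probes that can also match other transcripts, and 9 of these had a further probe set without such an ending, of which the brightest is the other probe set described here. In 7 members both were called present on at least 4 arrays. The other probe set gave the higher log2 fold change of null over wild-type in 6 of them. The median of other minus used was 0.99 over all 7, beside 0.31 over all 577 genes of the same kind (higher in 78.5%). In the comparison of heterozygous with wild-type lines the medians were −0.13 and −0.092.

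Among these other probe sets, that of Cdc20 had the largest difference. It measured 9.44, 9.20 and 8.66 in the null lines, 7.64 and 7.79 in the heterozygous lines, and 7.59, 8.00 and 8.24 in the wild-type lines. All null lines lay above all others, at a log2 fold change over wild-type of 1.15 (SE 0.22, adjusted p = 0.0653 over all probe sets in limma), against −0.0026 for the used one. Cdca8 read 1.12 in place of −0.24, Kif2c 0.97 in place of −0.18, Incenp 0.83 in place of −0.16 and Prc1 0.20 in place of −0.15. Bub1b read 0.60 in place of −0.33 from a probe set called present on 3 arrays. Ncaph was at 0.0043 in place of −0.54. Pttg1 read 0.50 in place of 0.74, while a dimmer probe set of Pttg1, called present on all 8 arrays, measured 8.01, 7.41 and 6.86 in the null lines, 5.80 and 6.56 in the heterozygous lines, and 6.70, 5.39 and 5.19 in the wild-type lines. Its null lines lay above all others, at a log2 fold change over wild-type of 1.66 (SE 0.43, adjusted p = 0.125 over all probe sets). With such probe sets used for all genes that have one, Cdca8 and Cdc20 were past 2-fold, as were 481 of all genes. The median over the members was then 0.17, with no member past an adjusted p of 0.05. In the fit with the 3′ to 5′ covariate the other probe sets gave 0.50 for Cdc20, 0.075 for Cdca8, 0.13 for Kif2c, 0.62 for Incenp and −0.19 for Bub1b. Where each probe set lies in its transcript was not analysed here. Aurka, Birc5, Cdk1, Cenpa and Kif20a were not read from such probe sets. Members not read from such probe sets could also differ between probe sets. For null over wild-type, dimmer ones called present on all 8 arrays read −0.16 in place of 0.73 for Top2a and 0.022 in place of 0.45 for Ncapd2. That of Mybl2 read 0.43 in place of 0.81. Others read higher: 0.56 in place of 0.32 for Nek2, and 1.09 in place of 0.36 for Cenpa, called present on 4 arrays.

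**Figure D5:**
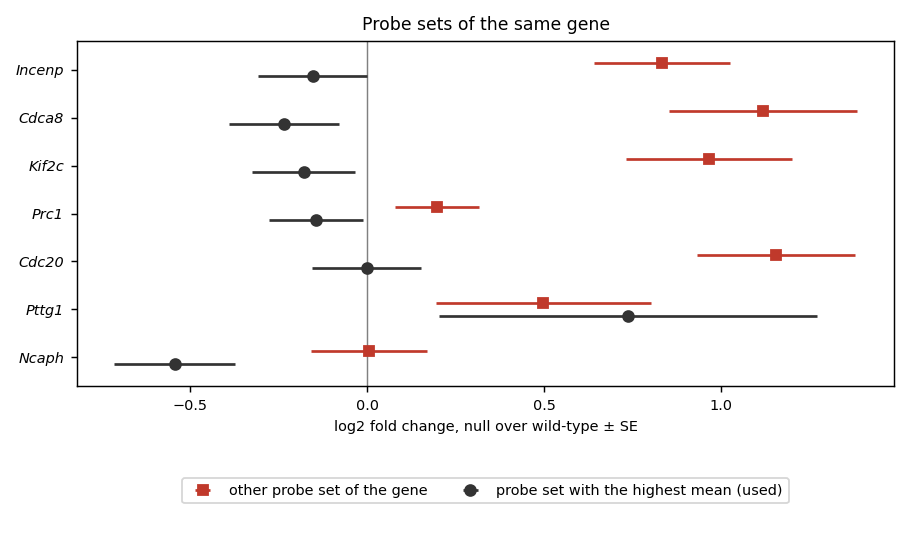
Log2 fold change of null over wild-type ± SE for the 7 members with a used probe set ending in _s_at or _x_at (black circles) and the brightest further probe set of the same gene without such an ending (red squares), both called present on at least 4 arrays. The other probe set gave the higher value in all but Pttg1, by the most in Cdca8, Cdc20 and Kif2c. A dimmer Pttg1 probe set, at 1.66, is not plotted.

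A list of 118 other mitosis genes, of which 117 were measured, was described in the same way for null over wild-type: 13 were higher (11.1%, against 8.67% of genes) and 17 lower (14.5%, against 7.71%) at an unadjusted p under 0.05, with a median log2 fold change of −0.043. Stag1, a cohesin subunit, was the only one past an adjusted p of 0.05. Its level was 6.26, 6.21 and 6.65 in the null lines, 7.20 and 6.99 in the heterozygous lines, and 7.29, 7.14 and 7.16 in the wild-type lines. It fell by 0.82 on the log2 scale (SE 0.14, adjusted p = 0.0452). Of 48 measured DNA replication genes, 16 were higher (33.3%, against 8.67% of genes) and 0 lower (against 7.71%) at an unadjusted p under 0.05, with a median of 0.35, and the difference between this median and that of the mitosis genes was not tested. Cdc45, a subunit of the replicative helicase, rose by 0.87 (SE 0.15, adjusted p = 0.0467) and was the only one past an adjusted p of 0.05. It measured 5.89, 5.68 and 5.92 in the null lines, 5.14 and 4.78 in the heterozygous lines, and 5.14, 4.71 and 5.01 in the wild-type lines. With 1 line left out, Stag1 kept an adjusted p under 0.05 in 1 of 8 fits (0.0395 to 0.181), which left out a null line. Cdc45 did so in 2 of 8 (0.0495 to 0.183), and both genes kept their sign in each fit. The 2 fits for Cdc45 left out a heterozygous line. Those lines are not in this comparison, so its log2 fold change stayed at 0.87. With a null or wild-type line left out, Cdc45 did not pass (adjusted p from 0.0559 to 0.183 in limma). No gene of these lists passed in the other comparisons.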

How the data were processed

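Affymetrix mouse arrays measured the RNA of 8 ESC lines, and genotypes and line names were taken from the labels. The authors processed all arrays jointly with RMA, and the values they deposited are log2 levels per probe set, from 2.28 to 14.39. For each array they also deposited a linear signal intensity, a present or absent call and its detection p-value. The upstream versions of both RMA and limma were not given in the sources used here.

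Of 45101 probe sets, 64 controls were left out. The platform annotation named 1 gene for 34945, more than 1 for 932 and none for 9160, and the brightest probe set by mean stood for each of 18193 genes. Genotypes were compared in limma 3.58.1 (R 4.3.3, lmFit with eBayes) on all 8 arrays with Benjamini-Hochberg adjustment over all genes, a procedure tested on simulated data. Single probe sets were fitted in the same way over all probe sets. Alternatives were the mean of all probe sets, detected genes only, quantile normalization, intensity values (floor of 16, scaled to the median), only the genotypes compared, the 3′ to 5′ control difference as a covariate, and each line left out. Leaving out both lines with the fewest present calls, preferring probe sets without _s_at or _x_at endings, and a litter block over the lines the study pairs by litter were chosen after seeing the data. The number of arrays limits the precision.

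The members and all gene lists were chosen with earlier results of these data known. Levels in every line are given for the 3 members of each role with the smallest unadjusted p for null against wild-type, and for the 3 largest and 3 smallest log2 fold changes in null and in heterozygous over wild-type lines. Of the other mitosis genes, those past an adjusted p of 0.05 are named.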

Additional observations from a re-analysis of the deposited data

How the results depend on the processing

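No member passed an adjusted p of 0.05 in limma with all lines kept, and few settings changed that. With only genes detected in every line of a genotype, 2 members passed between null and wild-type (Aurka, adjusted p = 0.0482, and Birc5, adjusted p = 0.0485) and 1 between null and heterozygous (Aurka, adjusted p = 0.0439). With 1 null or wild-type line left out, 0 to 1 members passed between null and wild-type (Birc5 without wild-type line 3.3, adjusted p = 0.0486) and 0 between heterozygous and wild-type. Between null and heterozygous 0 to 3 passed (Aurka, Birc5 and Top2a without wild-type line 3.2, adjusted p = 0.0406, 0.0269 and 0.0288). That line is not in this comparison, so the log2 fold changes were unchanged, and only the spread shared by all lines and the adjustment differed. Their SEs were 0.18, 0.12 and 0.18 without it, against 0.17, 0.16 and 0.26 with it. Keeping only detected genes also left the log2 fold changes unchanged. Why Birc5 passed without wild-type line 3.3 was not tested.

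Members past 2-fold with 1 line left out numbered 0 to 1 between null and wild-type (330 to 617 of all genes). They numbered 0 to 1 between heterozygous and wild-type (58 to 234 of all genes), and 1 to 3 between null and heterozygous (363 to 759 of all genes). Under the other settings, between null and wild-type there was 1 with the 3′ to 5′ covariate (Pttg1), where 306 of all genes were. There were 2 with probe sets without _s_at or _x_at endings (Cdca8 and Cdc20), where 481 of all genes were. Between heterozygous and wild-type there was 1 with signal values (Foxm1, lower), beside 149 of all genes. Between null and heterozygous there were 0 with the mean of all probe sets, 1 with quantile normalization, 1 with the covariate and 6 with the probe sets just named. Over all genes these counts were 252, 445, 389 and 492 of 18193, in that order. The median log2 fold change of the members was 0.17 for null over wild-type with those probe sets and −0.054 for null over heterozygous with signal values. With 1 line left out it ran from −0.082 to 0.060 for null over wild-type, −0.16 to 0.13 for heterozygous over wild-type and −0.16 to 0.16 for null over heterozygous.

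For null over wild-type, the sign turned for Cdca8 (0.40) and Bub1b (0.10) with the mean of all probe sets, for Nek2 (−0.12) with signal values, for Ncapd2 (−0.073) with the covariate, and for Cdca8 (1.12), Bub1b (0.60), Kif2c (0.97) and Ncaph (0.0043) with the other probe sets. For null over heterozygous it turned for Cdca8 (0.51) and Bub1b (0.33) with the mean of all probe sets, for Ncaph (0.031) and Mybl2 (−0.0073) with the covariate, and for Cdca8 (1.41), Bub1b (1.19), Kif2c (1.02) and Ncaph (0.16) with the other probe sets. The cause was not tested. Over all genes, calls at an adjusted p of 0.05 between null and wild-type were 206, and 420 with detected genes only, 138 with the mean of all probe sets, 20 with signal values, 0 with the covariate and 5 without heterozygous line 3.1 and wild-type line 3.2. With 1 line left out they ran from 2 to 208, with 3 when null line 7 was dropped, 2 for wild-type line 3 and 4 for wild-type line 3.2. Between null and heterozygous, where 0 genes passed, 346 did without wild-type line 3.2 and 155 with detected genes only. For members picked by the rule above for giving levels, 1467 log2 fold changes were recomputed under an alternative. Of these, 1356 moved by less than the pooled SD within genotypes and did not pass an adjusted p of 0.05. A further 88 moved by more, and 7 passed that threshold. In 16 the sign turned, with an unadjusted p under 0.05 in limma in at least 1 of the 2 fits. Counts and medians of members are not among these values. Some settings cannot change a log2 fold change: leaving out a line of the genotype not compared, fitting only the genotypes compared, and keeping only detected genes. Their values are among the 1467, so the 1356 is not a measure of how stable the differences were.

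No paired analysis was possible because the labels give no replicate numbers that the genotypes share, except between the 4 null and wild-type lines that the study names as litter-mates. A limma fit of those 4 lines with litter as a replicate block leaves 1 residual degree of freedom. It gave 0 members past an adjusted p of 0.05, where 178 of all genes passed. At an unadjusted p under 0.05 there were 13 of 47 members, beside 16.1% of all genes, and the members' median was −0.018. With 2 or 3 lines a genotype, the 95% interval of a member's difference (null over wild-type) reached 0.22 to 1.22 log2 units either side, with a median of 0.40 and the widest in Pttg1.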
